A study of Mus musculus with 2 samples.

Results

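Collagen chain genes were taken as all genes of the deposited gene table whose symbol was Col, a number, the letter a and a number. This gave 40 collagen chain genes among 19278 listed genes. The GENCODE M21 annotation of the mouse holds 44 genes with such a symbol, so 90.9% of the known chains had a row in the table, against 72.6% of all protein-coding genes. A gene was listed when it was detected in at least 5 of the 18397 cells. A second column of the table marked 1000 genes, here called highly variable, whose dispersion between cells lay furthest from the trend with expression among genes above a minimum level. It did so for 9 of the 40 collagen chains (22.5%), against 5.19% of all listed genes and 5.91% of listed protein-coding genes. Expression values of single genes were not at hand, so that the listing and the highly variable mark are the only readouts per chain, and both were set over the cells of both libraries together. The listing says only that a chain was detected in 5 cells or more, and neither column says how strongly or in which cell type it was expressed.

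The cells came from whole lungs of female BALB/c mice aged 20 weeks, fed for 16 weeks with either a control diet (CD) or a diet rich in fat (HFD). Fat, protein and carbohydrate supplied 13%, 27% and 60% of the energy of CD and 60%, 20% and 20% of that of HFD. The lungs were digested with Liberase and DNase, freed of red blood cells and captured in droplets. There was 1 library for each diet, with 8793 cells and 42470977 unique molecular identifiers (UMIs) for CD and 9604 cells and 50679251 UMIs for HFD, from a number of mice that is not stated.

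Collagens are proteins of the extracellular matrix in which 3 chains wind into a triple helix. The helix requires a repeat of triplets, each made of glycine and a pair of other residues, often proline and hydroxyproline. Fibrillar collagens pack into the fibrils that give tissue its tensile strength, type IV collagen forms the network of basement membranes, and other classes form beaded filaments or smaller networks, decorate fibrils, anchor basement membranes or span the cell membrane. In the lung, fibrils of types I and III run through the airway walls, vessels and alveolar septa, and type IV networks lie beneath the alveolar epithelium and the capillary endothelium.

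The glycine repeat can be read in the genes themselves, and it separates the classes that are compared here. In fibrillar chain genes the most frequent inner exon has 54 bases that code for 6 triplets, whereas type IV exons vary in length and some carry a break in the repeat. The following coding exons are printed 5′ to 3′ on the coding strand of GRCm38, with every whole glycine codon in capitals. For the fibrillar chains Col1a1, Col1a2 and Col3a1, which were highly variable, and Col5a2, which was not, the first 54-base exon inside the longest helical run is shown. For the type IV chains Col4a4, highly variable, and Col4a1, not highly variable, it is the first inner coding exon of at most 120 bases that spans a break.
Col1a1, exon 8 of 51, chr11:94939904-94939957, plus strand: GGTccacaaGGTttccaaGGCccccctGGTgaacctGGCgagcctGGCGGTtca
Col1a2, exon 8 of 52, chr6:4515481-4515534, plus strand: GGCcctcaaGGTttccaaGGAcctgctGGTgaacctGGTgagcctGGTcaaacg
Col3a1, exon 6 of 51, chr1:45325360-45325413, plus strand: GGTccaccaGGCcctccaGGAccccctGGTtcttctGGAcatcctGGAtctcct
Col5a2, exon 10 of 54, chr1:45422386-45422439, minus strand: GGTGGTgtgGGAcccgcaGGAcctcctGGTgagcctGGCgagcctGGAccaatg
Col4a4, exon 8 of 48, chr1:82535741-82535809, minus strand: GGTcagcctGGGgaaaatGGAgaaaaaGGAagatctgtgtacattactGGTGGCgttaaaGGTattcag
Col4a1, exon 9 of 52, chr8:11244486-11244569, minus strand: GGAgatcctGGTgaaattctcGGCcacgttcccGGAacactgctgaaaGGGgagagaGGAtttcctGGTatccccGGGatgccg

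In the 4 fibrillar exons a glycine codon opens every triplet from the first base to the last. Col1a1 and Col5a2 each have 1 glycine more than the 6 that the repeat requires. In the 69 bases of Col4a4 the spacing is lost in 1 place and then taken up again, and in the 84 bases of Col4a1 it shifts in 3 places. The fibrillar exons were chosen inside an unbroken run and the type IV exons across a break. The unbroken and broken repeats therefore follow from the choice, and they cannot be set against the highly variable mark.

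Fibrillar chains were listed in 9 of 11 cases, and 3 of these 9 (33.3%) were highly variable. The 3 were Col1a1 and Col1a2, which together form type I collagen, the main fibril protein of connective tissue, and Col3a1, the only chain of type III collagen, which is found beside type I in tissues that stretch. Col1a1 (ENSMUSG00000001506) lies at chr11:94936224-94953042 on the plus strand and is the shortest of the highly variable chain genes at 16.8 kb. Col1a2 (ENSMUSG00000029661) covers 36.7 kb at chr6:4504814-4541544, and Col3a1 (ENSMUSG00000026043) covers 38.2 kb at chr1:45311538-45349706, both on the plus strand. The 3 chains of type V collagen, Col5a1, Col5a2 and Col5a3, which start fibrils and limit their width, were listed and not highly variable. The same was true of Col11a2, a chain of cartilage type XI collagen, and of Col24a1 and Col27a1, fibrillar chains with a shorter helix. The chains without a row were Col2a1, the chain of the main cartilage collagen, and Col11a1, its partner in type XI. When only the long fibrillar chains of types I, II, III, V and XI were counted, 3 of 7 listed chains (42.9%) were highly variable.

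All 6 chains of type IV collagen were listed, and 2 of them (33.3%) were highly variable. These were Col4a3 and Col4a4, whose products join with that of Col4a5 in the networks of the glomerular and alveolar basement membranes. Col4a4 (ENSMUSG00000067158) lies on the minus strand at chr1:82448423-82586849 and Col4a3 (ENSMUSG00000079465) next to it on the plus strand at chr1:82586921-82722059, covering 138 kb and 135 kb. Their partner Col4a5 was listed without the mark. So were Col4a1 and Col4a2, the chains found in nearly all basement membranes, and Col4a6, a chain of smooth muscle and epithelial basement membranes. The multiplexins Col15a1 and Col18a1, proteoglycans of the basement membrane zone, were listed and not highly variable, and the C-terminal piece of the latter is known as endostatin. Col7a1, the chain of the anchoring fibrils below stratified epithelia, was also listed without the mark. Counting the multiplexins as basement membrane chains gave 2 of 8 (25%), and adding Col7a1 gave 2 of 9 (22.2%).

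**Figure D1:**
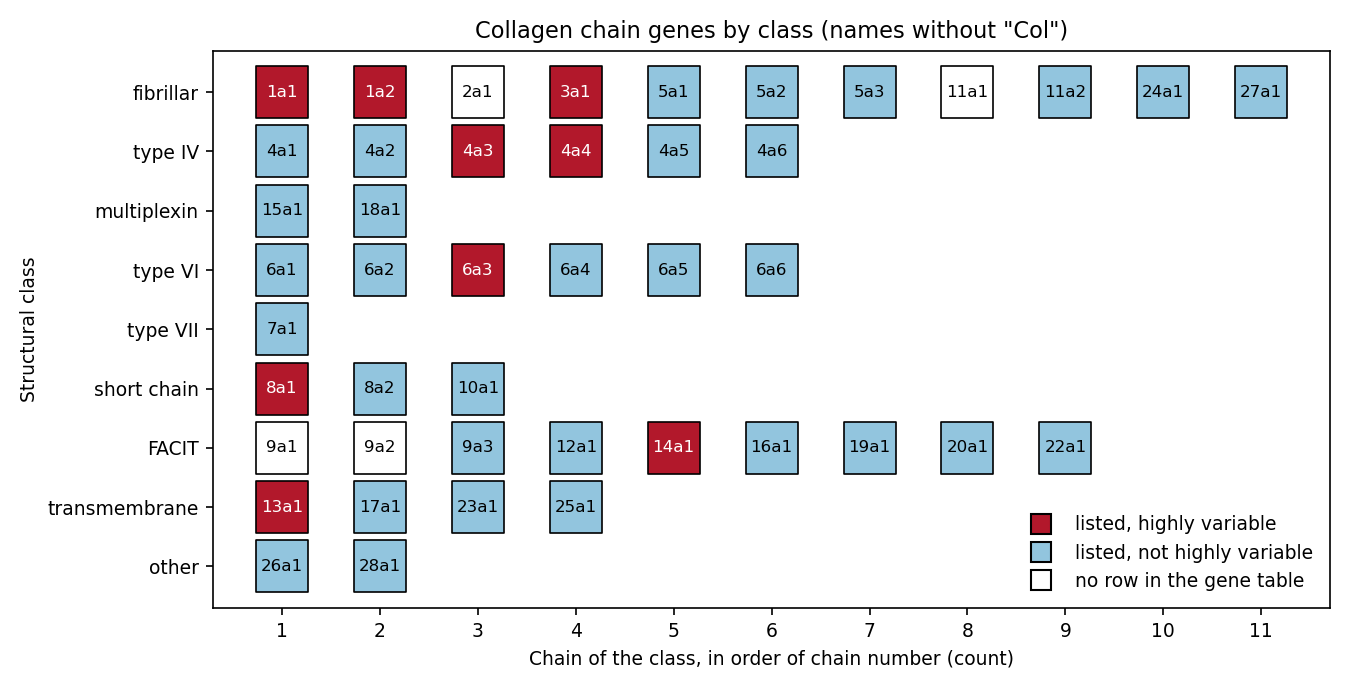
Each square is 1 of the 44 annotated collagen chain genes, placed by structural class (vertical axis) and by the order of its number within the class (horizontal axis, count), and coloured by its status in the gene table. The 9 highly variable chains are spread over 6 of the 9 classes, and the 4 chains without a row are 2 fibrillar and 2 FACIT chains.

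Outside the fibrillar and type IV classes, 25 of 27 chains were listed and 4 of the 25 (16%) were highly variable, 1 in each of 4 classes. In type VI collagen, which forms beaded microfilaments around cells, all 6 chains were listed and only Col6a3 carried the mark (16.7%). Col6a3 (ENSMUSG00000048126, chr1:90765923-90843971, minus strand) codes for the longest of all annotated chains, with 3284 residues, and assembles with Col6a1 and Col6a2. Neither of these partners was highly variable, and nor were Col6a4, Col6a5 and Col6a6, which resemble Col6a3.

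Of the short network-forming chains, Col8a1 (ENSMUSG00000068196, chr16:57624258-57754737, minus strand) was highly variable, and Col8a2 and Col10a1 were listed without the mark. Col8a1 and Col8a2 build the type VIII network of vessel walls and of the cornea, and Col10a1 belongs to hypertrophic cartilage. Of the FACIT chains, which sit on the surface of fibrils and have interrupted helices, 7 of 9 were listed. Col14a1 (ENSMUSG00000022371, chr15:55307750-55520803, plus strand) was the only highly variable FACIT chain (14.3% of 7) and, at 213 kb, the longest gene of the highly variable chains. Col12a1, its closest relative, was listed without the mark, as were Col9a3, Col16a1, Col19a1, Col20a1 and Col22a1. Col9a1 and Col9a2, the partners of Col9a3 on cartilage fibrils, had no row.

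All 4 chains of the transmembrane collagens were listed, and 1 (25%) was highly variable. This was Col13a1 (ENSMUSG00000058806, chr10:61838236-61979108, minus strand), which is found at cell adhesion sites and, like Col14a1, is widely used to name a fibroblast population of the mouse lung. Col17a1, a component of hemidesmosomes, and Col23a1 and Col25a1 were listed without it. The remaining chains, Col26a1 and Col28a1, were both listed and neither was highly variable.

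Put together by type, 26 of 27 collagen types had at least 1 listed chain, and 7 types had a highly variable one. Type II was the type with no listed chain, and with type IX and XI chains it accounts for all 4 missing genes, which are known from cartilage and the eye. The listing threshold of 5 cells amounts to 0.0272% of all cells and 0.154% of the 3242 cells annotated as mesenchymal. The smallest annotated cell type has 62 cells, so a chain confined to a few cells of such a type could still be listed. No collagen chain fell into the mitochondrial, ribosomal and cell cycle classes that the table keeps apart, in which no gene was highly variable. Outside those classes 5.26% of genes were highly variable.

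Collagen molecules contain 3 chains that may come from different genes, so the status of partners was compared for 11 well-known molecules. All chains were listed for 8 of them. In 2 molecules, type I and type III, every chain was highly variable. In 3 molecules some chains were and others were not. They were the type IV network of Col4a3, Col4a4 and Col4a5 (2 of 3 chains), type VI of Col6a1, Col6a2 and Col6a3 (1 of 3), and type VIII (1 of 2). The other 6 had no highly variable chain. They included type V with all 3 chains listed, the type IV molecules of Col4a1 with Col4a2 and of Col4a5 with Col4a6, and the cartilage types II, IX and XI. For types IX and XI only 1 of 3 chains was listed, Col9a3 and Col11a2.

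The chains were next compared by the triple helix they code for, which was counted in translated GENCODE coding sequences as glycine-led triplets in unbroken runs of at least 6. Every annotated chain held such a run, and the longest run of a chain ranged from 23 triplets in Col26a1 to 344 in Col3a1. Fibrillar chains formed a group of their own, with 327 to 359 triplets in 2 or 3 runs and a longest run of 216 to 344. Col24a1 and Col27a1 made up its lower end, with 216 and 217. Type IV chains had more triplets, 421 to 444, but in 22 to 27 runs, none longer than 66. Col7a1 had the highest number of all, 461 triplets in 18 runs. Type VI chains held only 103 to 110 triplets in proteins of 1025 to 3284 residues, and the short chains 142 to 144.

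**Figure D2:**
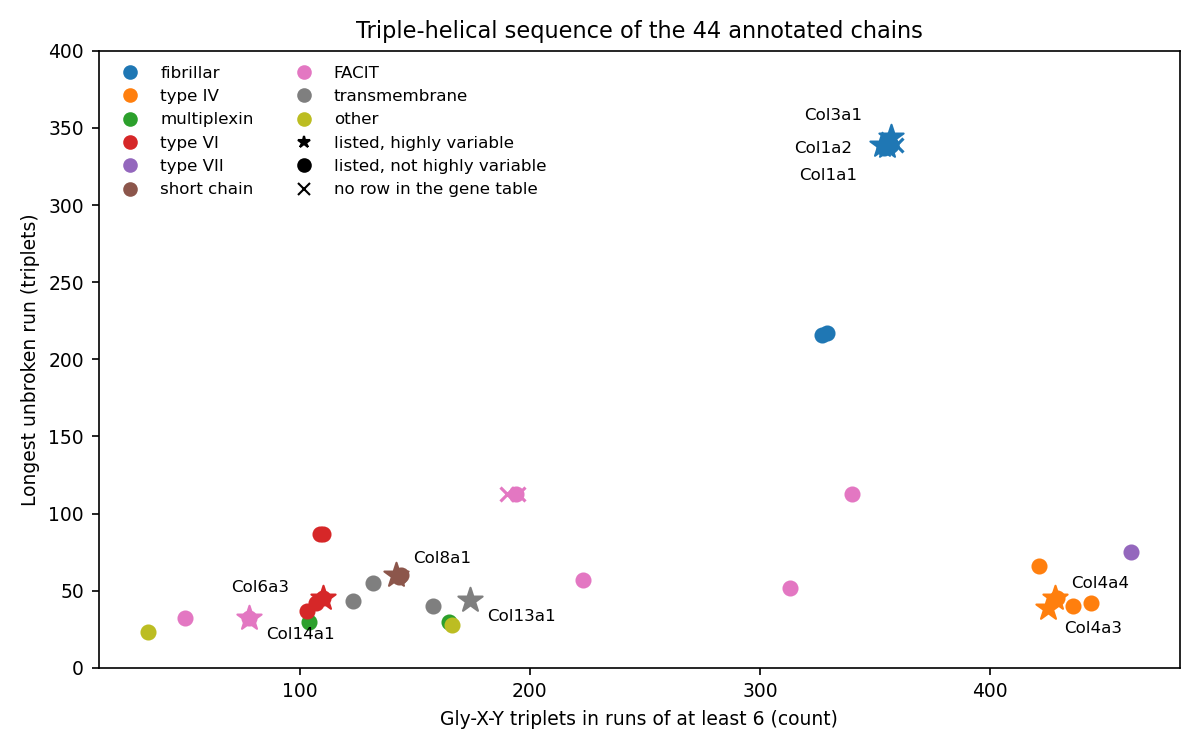
Each point is 1 annotated chain, with its triplets in runs of at least 6 on the horizontal axis (count) and its longest unbroken run on the vertical axis (triplets). Colours give the class, stars the highly variable chains and crosses the chains without a row. The stars range from 78 triplets in Col14a1 to 428 in Col4a4 and from a longest run of 32 in Col14a1 to 344 in Col3a1. No star lies between a longest run of 60 in Col8a1 and 338 in Col1a1. Chains without the mark lie in that gap, among them Col24a1 and Col27a1 at 216 and 217.

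Highly variable chains had no helix form in common. Col1a1, Col1a2 and Col3a1 had longest runs of 338, 339 and 344 triplets. Those of Col5a1, Col5a2, Col5a3 and Col11a2 without the mark lay close to these values, at 338, 339, 337 and 338. Col4a3 and Col4a4 had 425 triplets in 24 runs and 428 in 27 runs, and Col4a1 without the mark had 436 in 22. Col14a1 and Col12a1 each had 78 triplets and a longest run of 32, and only Col14a1 was highly variable. The median number of triplets was 353 (lowest 78, highest 428) for the 9 highly variable chains and 166 (lowest 34, highest 461) for the 31 other listed chains. The longest run had a median of 45 (32 to 344) against 55 (23 to 339). Both ranges overlapped over most of their length.

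Gene and protein sizes overlapped as well. The gene span had a median of 130 kb (16.8 to 213) for highly variable chains and 114 kb (7.11 to 468) for the other listed chains. Median transcript length was 5930 bases (3162 to 10108) against 5658 bases (2624 to 11511), and the number of exons was 48 (4 to 52) against 45 (3 to 119). Protein length was 1464 residues (739 to 3284) against 1613 (440 to 3065). The 4 chains without a row covered 52.1 kb at the median (15.9 to 190) and held 275 triplets (190 to 359), within the range of the listed chains. These are descriptions of the genes and not of their expression.

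Exon length separated the classes more sharply than the highly variable mark did. Among inner coding exons, those with coding exons on either side, 305 of 627 (48.6%) of the fibrillar genes had exactly 54 bases and 83.9% a multiple of 9 bases, the length of 1 triplet. Over all protein-coding genes the values were 0.734% and 14.3%. Type IV genes had 12 exons of 54 bases among 284 (4.23%), and 47.2% were multiples of 9. FACIT genes lay between, with 26.3% and 55.1%. Of the exons lying wholly inside a helical run, 509 of 509 in fibrillar genes began with a whole glycine codon, against 70 of 127 (55.1%) in type IV genes. For highly variable chains 22.6% of 367 inner exons had 54 bases, and for the other listed chains 22.2% of 1367.

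**Figure D3:**
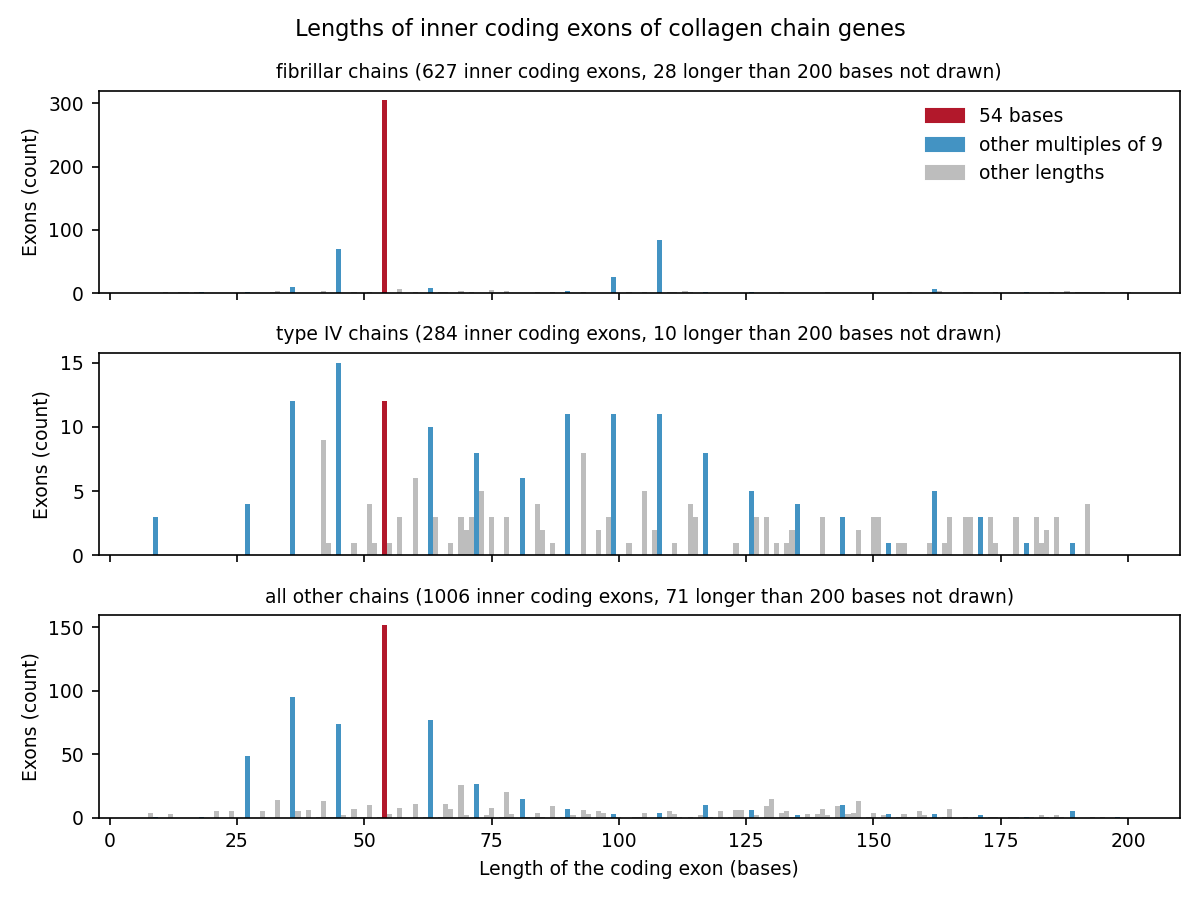
Bars count inner coding exons (vertical axis) by length in bases (horizontal axis) for fibrillar, type IV and all other chains, with 54 bases in red and other multiples of 9 in blue. Exons over 200 bases are not drawn (28 of 627 fibrillar, 10 of 284 type IV and 71 of 1006 other exons), and of those drawn 305 fibrillar exons stand at 54 bases, whereas type IV exons spread over many lengths.

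Several collagen genes lie side by side. Within 500 kb of each other there were 10 neighbouring pairs, of which 9 had both genes listed. In 1 pair both genes were highly variable, Col4a4 with Col4a3. In 1 pair a single gene was, Col3a1, which is separated from Col5a2 by 24615 bases. In the other 8 pairs neither was, among them Col6a2 with Col6a1, Col6a6 with Col6a5, and Col6a5 with Col6a4. In 3 pairs the genes point apart from a shared start region, and all 3 are pairs of type IV genes. The starts lie 72 bases apart for Col4a4 and Col4a3 and 1309 bases apart for Col4a6 and Col4a5. For Col4a1 and Col4a2 they lie 21 bases apart, and the transcripts overlap. In each of these pairs both genes had the same status, highly variable for Col4a4 and Col4a3 and not for the other pairs. Like status was common among neighbours, since only 1 of all 10 neighbouring pairs differed. In addition, 31 of the 40 listed chains lacked the mark, so like status is no trait of genes with a shared start region.

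The stretch between the starts of Col4a4 and Col4a3 is shown because both genes were highly variable and are read from it in opposite directions. It covers chr1:82586850-82586920 and was read on the minus strand from the RefSeq promoter of Col4a4 (GRCm38.p6). It has 71 bases, 69% of them G or C, and no capitals because no searched motif was found in it.
Between the starts, from the Col4a3 side to the Col4a4 side: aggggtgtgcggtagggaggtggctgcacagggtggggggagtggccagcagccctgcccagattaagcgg

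The letters of 3 promoter motifs were searched on both strands of RefSeq promoters from 250 bases before to 50 bases after the start, which were held for 35 of 44 chains. GGGCGG, the core of the GC box, was found in 22 of 35 chains (62.9%) and in 38.2% of all 27025 promoters. It was present in 2 of 6 highly variable chains and in 18 of 26 other listed chains (69.2%). CCAAT was found in 13 of 35 chains (37.1%) against 41.1% of all promoters, in 1 of the 6 highly variable chains and in 10 of 26 other listed chains (38.5%). TATAAA was found in 5 of 35 (14.3%) against 15.7%, in 2 of the 6 and in 3 of the 26 (11.5%). The chains without a match to the promoter table were Col1a1, Col2a1, Col4a3, Col5a2, Col9a3, Col12a1, Col14a1, Col22a1 and Col26a1. A match of letters is not evidence of binding.

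The listed chains were spread over 15 chromosomes and the highly variable ones over 6. Chromosome 1 held 4 of the 9, Col3a1, Col4a4, Col4a3 and Col6a3. Some chains share exon bases with another annotated gene, so reads there may be ambiguous. On the same strand this held for 3 listed chains, Col3a1 and Col7a1, each with a microRNA gene that was not listed, and Col20a1 with a listed transcript. On the opposite strand it held for 10 listed chains, among them the highly variable Col4a3 with the listed C430014B12Rik, and Col4a1 with Col4a2. The other 27 shared none. How many reads were affected could not be measured.

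The genes that make, bind and break down collagen were followed in 9 lists with 134 members, of which 125 were listed and 38 (30.4%) were highly variable. Enzymes and chaperones that hydroxylate, glycosylate and fold the chains in the cell were all listed, and 1 of 22 (4.55%), Sparc, a collagen-binding secreted chaperone, was highly variable, a share near the 5.19% of all listed genes. The prolyl hydroxylase P4ha1 and the collagen chaperone Serpinh1 were not. Among genes for cleavage of the propeptides it was 2 of 7 (28.6%), the protease Adamts14 and the protease enhancer Pcolce2, and not the main C-proteinase Bmp1. Of the crosslinking enzymes 1 of 6 (16.7%) was highly variable, lysyl oxidase Lox.

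Small leucine-rich proteoglycans, which coat collagen fibrils and set their width, had the highest share, with 8 of 9 (88.9%). They were Dcn, Bgn, Lum, Ogn, Aspn, Prelp, Omd and Podn, and the member without the mark was Fmod. Genes of the elastic fibre, the stretchable partner of collagen in the lung, reached 10 of 17 (58.8%). They were elastin (Eln), Fbln1, Fbln2, Fbln5, Efemp1, Mfap4, Mfap5, Emilin2, Ltbp2 and Ltbp4. Of the collagen-degrading enzymes and their inhibitors 6 of 11 (54.5%) were highly variable, the collagenase Mmp8, the gelatinase Mmp9, the cathepsin Ctsk and the inhibitors Timp1, Timp3 and Timp4.

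Of the collagen receptors, 2 of 13 (15.4%) were highly variable, the integrin subunit Itga1 and the adhesion receptor Adgrg6, which binds type IV collagen. Neither Ddr1 nor Ddr2, the receptor tyrosine kinases for collagen, was. The laminins, nidogens and other partners of type IV collagen in basement membranes had 1 of 16 (6.25%), the laminin chain Lama3, a share near that of all listed genes. Other proteins with a collagen-like stretch had 7 of 24 (29.2%), the lung collectins Sftpa1 and Sftpd, the complement chains C1qa, C1qb and C1qc, the macrophage receptor Marco, and Emid1. The collagen chains, at 22.5%, thus ranked below 5 of the 9 lists and above 4.

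**Figure D4:**
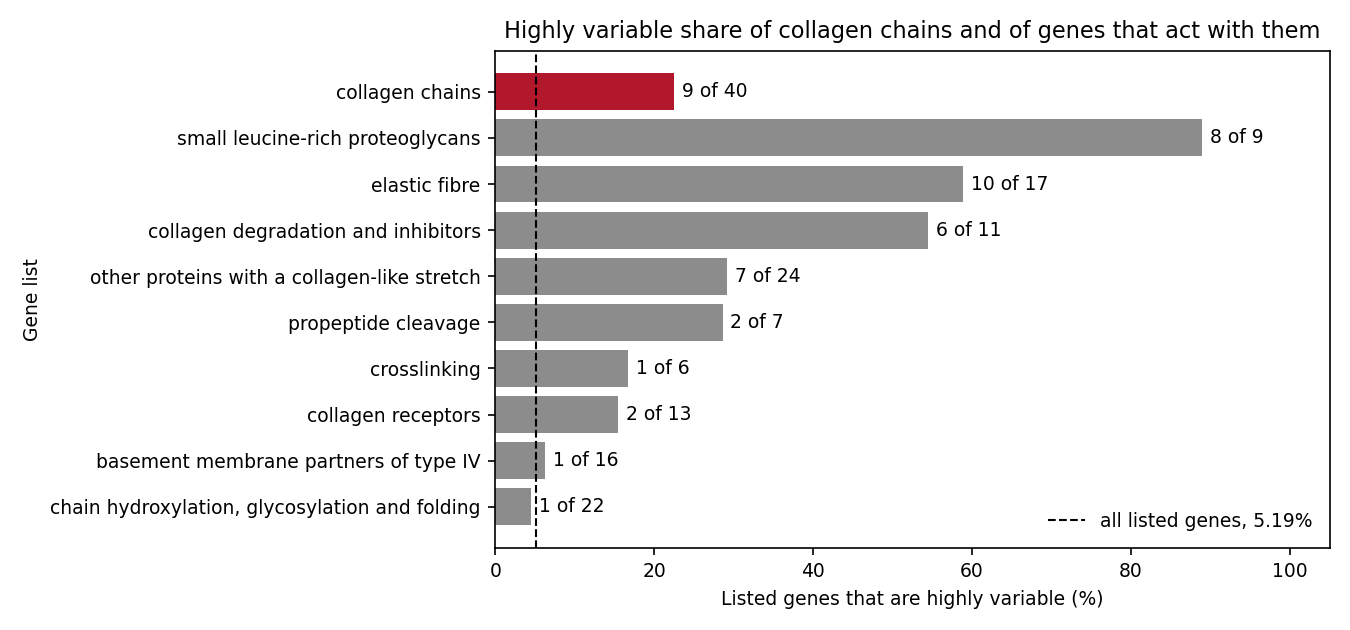
Bars give the percent of listed genes that were highly variable (horizontal axis) for the collagen chains (red) and the 9 lists of genes that act with them (grey), with counts at the bars. The dashed line marks 5.19% over all listed genes, and small leucine-rich proteoglycans are highest at 8 of 9.

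Cell type markers were looked up in the same way, and 37 of 40 were highly variable, against 5.19% of all listed genes. The authors clustered the cells on the highly variable genes and named the clusters by markers, so these counts are no independent check of the cell types. All 9 fibroblast markers were highly variable, and so were all 6 of myofibroblasts and all 6 of pericytes. The fibroblast markers include Col1a1, Col1a2 and Col3a1, which are already counted above as collagen chains. Of the endothelial markers only Kdr was highly variable (1 of 4), and endothelial cells numbered 5729. The markers of AT1 and AT2 cells, the alveolar epithelial cells, were highly variable throughout, with 5 of 5 and 6 of 6. The same held for the immune markers, with 4 of 4.

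Which cells carried the marks of the fibrillar chains was not tested, but fibroblasts, myofibroblasts and pericytes are known to make most fibrillar collagen. They made up 3242 of 18397 cells (17.6%). In the CD library 1425 cells were mesenchymal, 16.2% of its cells (95% interval 15.4 to 17.0). In the HFD library there were 1817, 18.9% (18.1 to 19.7). The ratio of HFD to CD was 1.17 (1.09 to 1.25), with intervals for counting error only. Their share of all UMIs was 15.6% and 17.6%, which gives a ratio of 1.13 between HFD and CD. With 1 library per diet no test is possible, and diet, mice and library cannot be told apart.

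By type, CD had 877 fibroblasts (9.97% of its cells) and HFD 1191 (12.4%). Their shares stood in a ratio of 1.24 (1.14 to 1.36), and they held 10.1% and 11.9% of the UMIs. Myofibroblasts made up 2.29% and 2.54% of cells (ratio 1.11, 0.918 to 1.35) and pericytes 3.95% and 3.98% (ratio 1.01, 0.869 to 1.17). Within the 5 fine clusters of fibroblasts the ratio ranged from 0.89 (0.754 to 1.05) in cluster 12 to 3.78 (2.13 to 7.16) in cluster 38. It was 1.90 (1.52 to 2.39) in cluster 22. Clusters 22 and 38 had the lowest median UMIs per cell of the 5, 1318 and 1340, against 4262 to 6587 in the others. Pericyte clusters stood on both sides of 1, with 1.14 (0.96 to 1.35) in cluster 14, 0.672 (0.451 to 0.995) in cluster 35 and 0.723 (0.432 to 1.20) in cluster 41, and the 2 myofibroblast clusters had 1.08 and 1.20. Among cells with at least 3000 UMIs the mesenchymal ratio was 1.07 (0.977 to 1.17), and the part of depth in the difference was not tested. Which collagen chains these cells expressed in either diet was not analysed here.

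**Figure D5:**
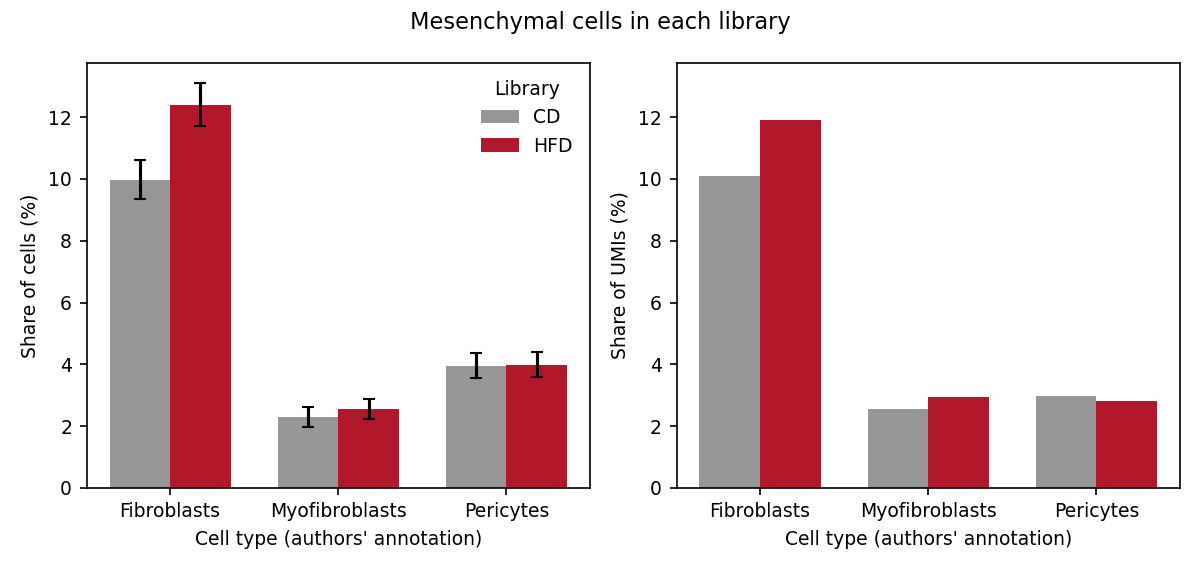
Bars give the share of cells (left, %) and of UMIs (right, %) taken by fibroblasts, myofibroblasts and pericytes in the CD (grey) and HFD (red) library, and error bars are exact 95% binomial intervals for counting error. Fibroblasts stand at 9.97% of cells in CD and 12.4% in HFD, and the bars of pericytes are nearly equal at 3.95% and 3.98%.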

How the data were processed

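Reads had been mapped by the authors with Cell Ranger (version not given in the sources used here) to GRCm38.p6, and both libraries were merged in Seurat (4.1.0 in the submitters' processing notes). The highly variable mark and the clusters, by the Louvain method on both libraries together, were then made after conversion for Monocle. The labels name a droplet kit for 3′ ends and the methods one for 5′ ends. The deposited table of cells gives raw counts of UMIs and of genes per cell, the percent of UMIs in mitochondrial genes, a cluster and the cell type of the authors. The cells in it had at least 1000 UMIs and 252 genes, and at most 19.9% mitochondrial UMIs. The paper states a lower minimum of UMIs than that. The deposited table of genes gives identifiers and yes-or-no columns. All columns belonged to the 2 libraries, with 0 columns of other samples. Doublets could not be checked without values of single genes, and 27 barcodes occurred in both libraries.

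Every chain was named with class and status, with positions for highly variable chains. Of the 9 lists of genes that act with collagen every highly variable member was named, and of the cell type markers only some. Examples without the mark were chosen after their status was seen. Members, classes and lists were chosen with earlier results of these data known. Of the gene identifiers, 19258 were found in GENCODE M21 (GRCm38). The longest coding sequence of each gene was used. Shares have exact (Clopper-Pearson) 95% intervals and ratios exact conditional intervals, all for counting error only. No test was run. The interval for ratios of cell shares was tested on simulated counts, and the run search and the translation on made-up sequences. The other calculations were not tested in this way. The alternatives were other ways to recognise chains, classes and denominators, a limit of 10% mitochondrial UMIs, a minimum of 3000 UMIs, and leaving out the 1% of cells with most UMIs. Tables were handled in Python 3.11.15 with numpy 2.4.6 and pandas 2.3.3, intervals were computed with scipy 1.17.1, and plots were drawn with matplotlib 3.10.9.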

Additional observations from a re-analysis of the deposited data

How the results depend on the processing

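A count was taken as unmoved within 1.5 times its value, and a share or ratio within its 95% counting interval, which for the ratio of UMI shares is very narrow because it counts UMIs as independent. By these limits 14 of 19 alternatives to 8 results did not move, 5 moved and 0 reversed. All 10 alternatives for the genes were among the 14. Most of them added or left out only a few genes, so they had little room to move beyond these limits. Matching only the start of the symbol gave 41 listed genes by adding Col4a3bp, a lipid transfer protein and not a chain, RefSeq identifiers gave 40, and leaving out chains with shared same-strand exon bases gave 37. Pairs of genes that point apart with the same status numbered 2 within 1000 bases and 3 within 10000 bases. The latter count lies exactly at the limit of 1.5 times, and only 1 of all 10 neighbouring pairs had unlike status. The highly variable share was 22.5%, 20.5% of all annotated chains and 22% with the wider match. The ratio of the mesenchymal share of cells was 1.17 and fell to 1.07 with at least 3000 UMIs. It was 1.11 (1.03 to 1.19) among non-immune cells. The ratio of the UMI share was 1.13 and moved only within rounding with at most 10% mitochondrial UMIs (1.13), and further with at least 3000 UMIs (1.10), without the 1% of cells with most UMIs (1.12) and with annotated cells only (1.12). The cause was not tested. No paired analysis was possible because CD and HFD came as 1 library each. Without values of single genes, a chain seen in fewer than 5 cells and an absent one could not be told apart, and the level of a chain is known only in that highly variable ones passed the minimum set for the mark.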
